A study of Mus musculus with 4 samples.

Results

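Interferon-stimulated genes are the antiviral and regulatory genes that cells switch on after sensing an interferon, and 33 of them were followed here in transplanted mouse mammary gland cells. The members are a list of symbols chosen without a threshold on these data, and 29 of the 33 had a probe set that carries their symbol alone. Isg15, Oas1a, Bst2 and Ifi44 had none and are not analysed here. Each measured gene is represented by its brightest probe set by mean over the 4 arrays, among 17097 genes treated the same way.

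The series holds 4 arrays, 2 per group. For BC alone, called the multipotent condition, 10000 BC cells were transplanted. For the control, called unipotent, 8000 LC cells were transplanted together with 2000 BC cells, so that the presence of LC cells and the number of BC cells differ together. In both groups cells were sorted on day 3 and 50 cells gave the RNA of an array. BC and LC are commonly read as basal and luminal cells, which the labels do not spell out. The sources used here do not give the strain, age or sex of the mice, the sort gate, any transgene or the animals behind each array. The spread between arrays of a group may therefore be technical, and the number of arrays limits the precision.

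Type I interferons bind the receptor of Ifnar1 and Ifnar2, whose kinases Jak1 and Tyk2 activate transcription factors that include Stat2. Together with Irf9, Stat2 is part of a complex that binds the interferon-stimulated response element in target promoters. Type II interferon acts through gamma-activated sites. The induced proteins sense viral nucleic acid, degrade or sequester viral RNA, block entry and budding, and feed back on the signal. Many cells keep a low level of these transcripts without infection, and macrophages and other leukocytes are strong sources of them.

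Control replicate 2 stood apart from the other arrays. Over all probe sets its SD was 1.44 against 1.90 to 1.92 on the others, and its Pearson r with them was 0.915 to 0.919 against 0.9685 to 0.9725 among the other 3, over probe sets that are not independent replicates. The median of 9 measured basal markers was 9.73 and 9.47 on the BC alone arrays, 9.74 on control replicate 1 and 5.68 on control replicate 2, and 8 of these 9 were lowest there. Of 10 luminal markers 8 were higher on control replicate 1 than on control replicate 2, and the median gap of the 10 was 0.81. Esr1 and Foxa1 ran the other way, at gaps of -0.24 and -2.57. The linear sum of the 10 was 3545, 4346, 3856 and 1252. Krt5, a basal keratin gene, had 10.47, 10.22, 10.76 and 7.12, and the luminal keratin gene Krt8 had 10.42, 10.30, 10.16 and 8.0. Ptprc, the pan-leukocyte CD45 gene, had 2.91, 3.27, 4.21 and 3.26, and Csf1r, the macrophage growth factor receptor gene, had 5.12, 4.86, 5.35 and 5.31. Of 18 macrophage markers 12, and of 6 pan-leukocyte markers 3, had a mean above the median of all probe sets. In RNA of pooled cells, fewer cells of a type and less RNA per cell cannot be told apart.

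The core of the interferon-stimulated response element was found in the promoters of many members. The search took GAAA, any 2 bases and GAAA again, on either strand, with overlapping copies counted separately, in RefSeq windows of 300 bases (250 before and 50 after the gene's start, build GRCm38.p6). Of the 33 members 24 had a window, and 12 of these 24, or 50.0%, held the motif, against 3.99% of 27025 genes with a window. Without an entry were Dhx58, Zbp1, Oas2, Mx1, Mx2, Usp18, Parp9, Parp14 and Rtp4. Isg15, Oas1a and Bst2 hold the motif but were not measured. The other 9 are shown because their replicates are compared below, with the motif in capitals and the flanks in lower case, 5′ to 3′ on the gene's strand.
Stat2, chr10:128270264-128270297, plus strand: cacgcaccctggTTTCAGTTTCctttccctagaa
Ifih1, chr2:62646206-62646235, minus strand: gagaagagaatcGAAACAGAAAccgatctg
Oas3, chr5:120777713-120777746, minus strand: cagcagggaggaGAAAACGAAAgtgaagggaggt
Eif2ak2, chr17:78882533-78882566, minus strand: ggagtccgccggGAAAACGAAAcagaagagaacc
Ifit1, chr19:34640773-34640825, plus strand: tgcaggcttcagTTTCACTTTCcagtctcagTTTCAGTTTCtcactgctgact
Ifit3, chr19:34583361-34583428, plus strand: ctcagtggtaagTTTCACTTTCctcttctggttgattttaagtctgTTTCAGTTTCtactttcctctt
Gbp2, chr3:142620592-142620625, plus strand: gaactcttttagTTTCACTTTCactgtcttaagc
Gbp3, chr3:142559987-142560026, plus strand: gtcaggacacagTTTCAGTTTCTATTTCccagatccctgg
Rsad2, chr12:26456551-26456584, minus strand: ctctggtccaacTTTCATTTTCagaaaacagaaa

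The gamma-activated site, searched as TTC, any 3 bases and GAA, which reads the same on both strands, was in 6 of the 24 member windows by gene, or 25.0%, against 9.55% of all genes. These were Bst2, Eif2ak2, Ifi35, Ifit2, Irf1 and Oas1a. A match is a description of the letters in these windows only.

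Values are log2 expression made by the authors with RMA, and are given in the order BC alone replicates 1 and 2, then control replicates 1 and 2. Levels of different probe sets are not compared, since each binds with its own strength. Detection calls were not used here, so low values are not read as absence. A difference is the BC alone mean minus the control mean with the standard error of the limma fit, and group means carry the SD of 2 arrays. Groups do not overlap where both arrays of one lie above both of the other.

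No member passed an adjusted p of 0.05 in limma's test over all genes, where 0% of the 17097 genes did. The smallest adjusted p among members was 0.842, and at an unadjusted p under 0.05 there was 1 member, Dhx58, against 680 of all genes. With 2 arrays a group, p = 0.333 is the smallest value that exact permutation allows. By direction alone, 21 of the 29 members had a higher mean in BC alone, 7 a lower one and Gbp3 an equal one, against 46.7% of all genes with a higher mean. After median centring of the arrays these were 24 members and 57.9% of all genes. The member median was 0.24 log2, between -0.86 and 1.28, and the median of all genes was -0.04. Median centring gave 0.36 and 0.085. Without BC alone replicate 2 the member median was -0.05, with 14 of 29 higher, and without control replicate 2 it was 0.15, with 19 higher. Without BC alone replicate 1 and without control replicate 1 it was 0.55 and 0.56.

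Groups did not overlap for 6 members, all higher in BC alone, where 16.8% of all genes are of this kind, and for 0 members lower, where 19.6% are. All 6 were among the 24 members whose mean lay above the median of all probe sets. Of all 10454 such genes 2613 were higher and 1164 lower without overlap. The count of 6 higher among 24 members is thus near the share of genes of like brightness. The part of brightness in these counts was not tested. At least 2-fold and without overlap were Dhx58 and Oasl2, both higher, against 4.79% of all genes higher and 0.895% lower. Both are among the 24 brighter members, and of all 10454 genes of that class 7.64% were higher and 1.14% lower in this way. Without BC alone replicate 1 there were 4 such members, all higher, against 7.17% of all genes higher, and without BC alone replicate 2 there were 2 higher and 1 lower, against 7.24% and 1.54%. Without control replicate 1 there were 6 higher and 1 lower, against 18.1% and 4.23%, and without control replicate 2 there was 1, higher, against 2.19%. The difference was larger than the gap between replicates in both groups for 4 members, Irf7, Ifih1, Dhx58 and Trim25, against 17.5% of all genes, so that share is near the background.

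**Figure D1:**
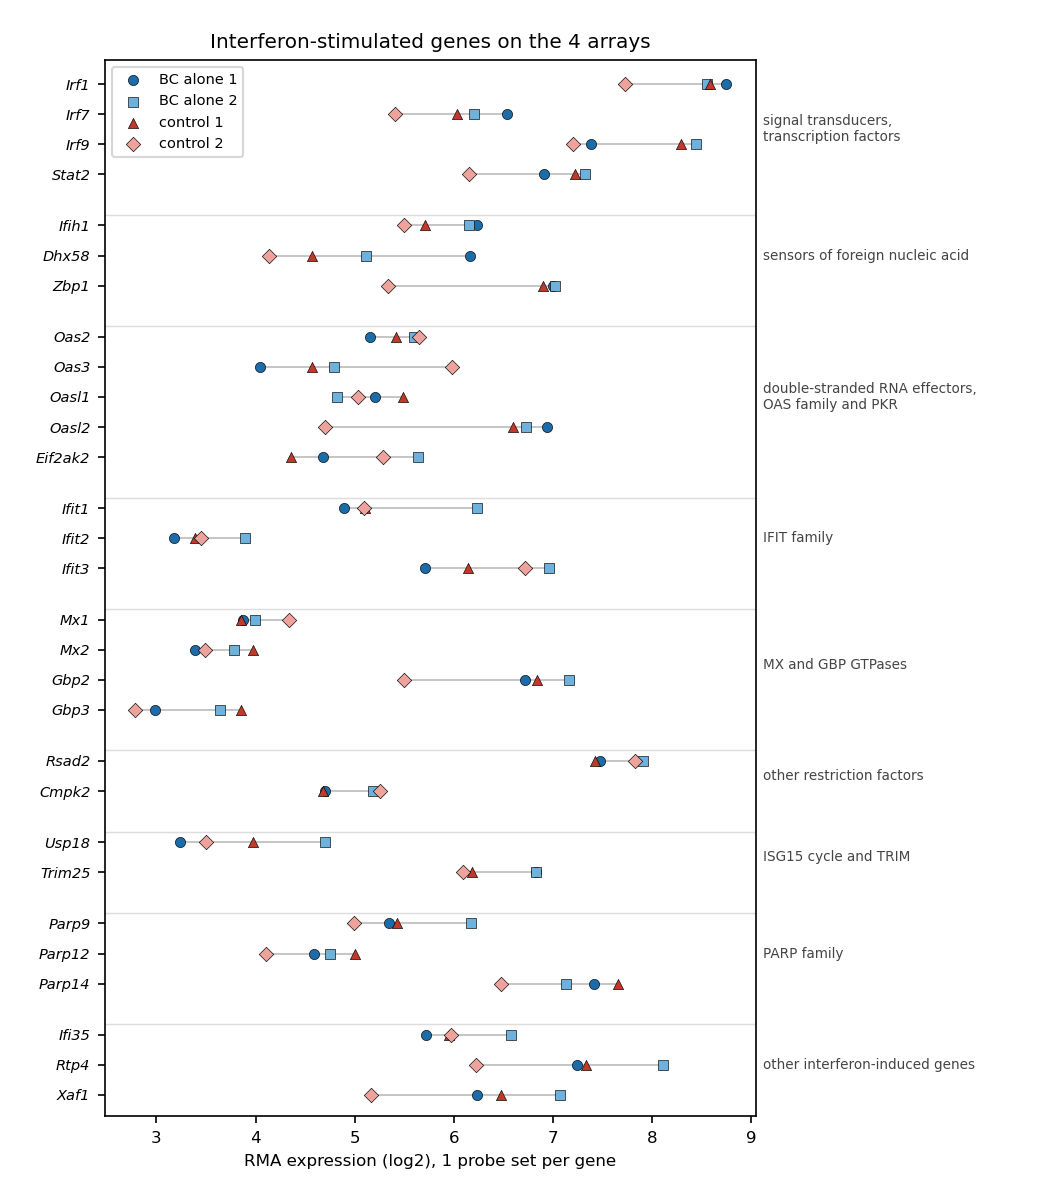
RMA expression on the log2 scale (x axis) of the 29 measured interferon-stimulated genes (rows, grouped by role), with 1 symbol per array and a line from the lowest to the highest array. Rows are to be read one at a time. Control replicate 2 holds the lowest value of 16 genes and BC alone replicate 2 the highest value of 14.

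**Figure D2:**
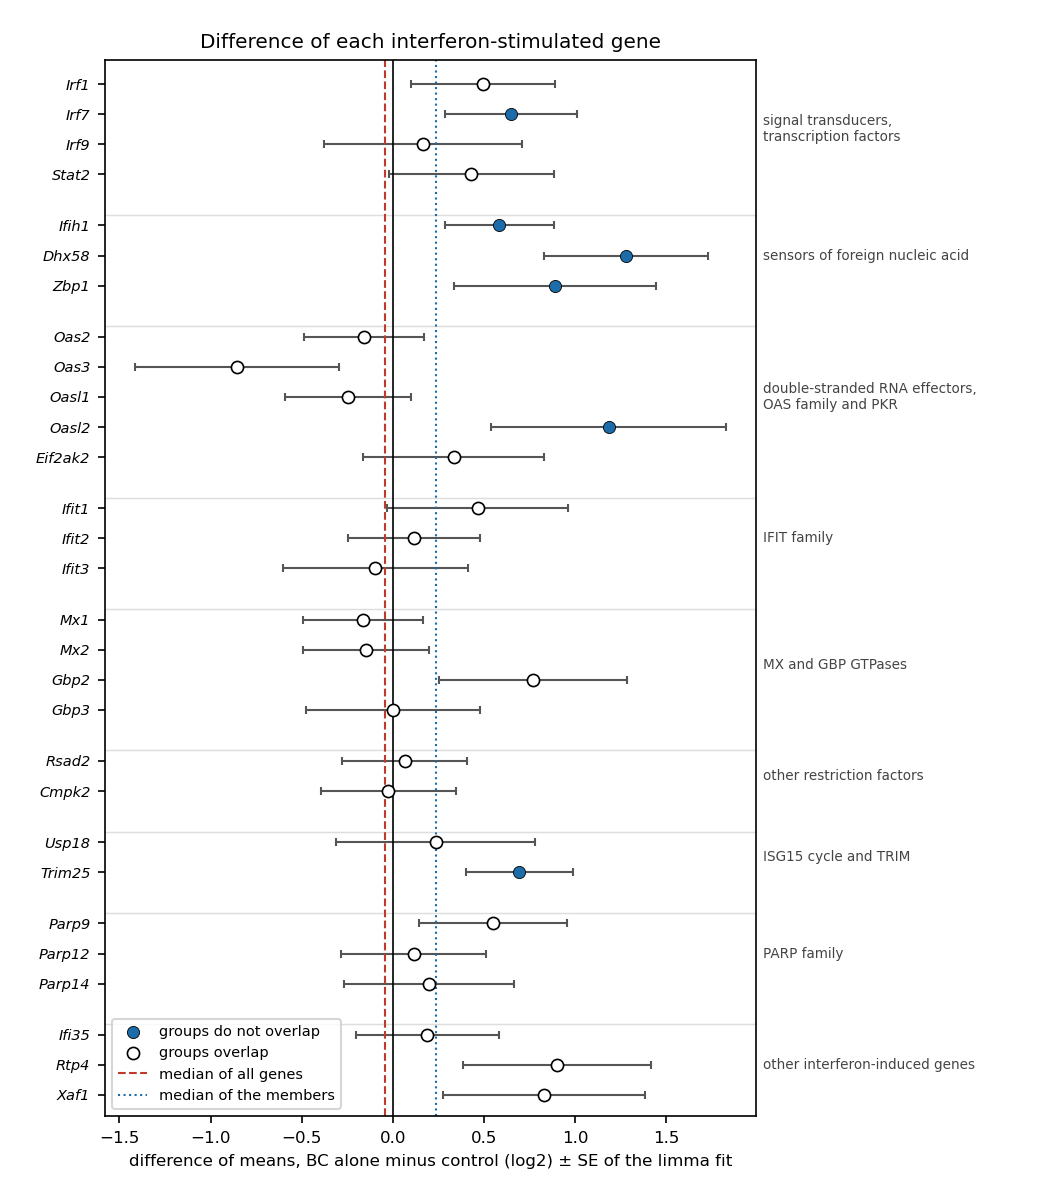
Difference of group means, BC alone minus control, on the log2 scale (x axis) with the standard error of the limma fit, for each of the 29 genes. Filled points mark the 6 genes whose groups do not overlap. The dashed line is the median of all genes, -0.04, and the dotted line the member median, 0.24.

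All 3 members that sense foreign nucleic acid had a higher mean in BC alone without overlap of the groups. The sign was the same under the 3 other scalings. Leaving out 1 array could not turn it, since the groups did not overlap. Dhx58 encodes LGP2, a RIG-I-like helicase that lacks the signalling domain and tunes the other sensors. It had 6.16, 5.11, 4.57 and 4.14, or 5.64 ± 0.74 in BC alone against 4.36 ± 0.30 in the control (SD, n = 2), a difference of 1.28 ± 0.45 (SE), 2.43-fold. BC alone replicate 1 was far above the other arrays. The difference was 0.76 without that array and 1.81 without BC alone replicate 2, and a dimmer Dhx58 probe set differed by 0.70 while the dimmest one differed by -0.33.

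Ifih1, which encodes the long double-stranded RNA sensor MDA5, had 6.23, 6.15, 5.71 and 5.50, with replicates close together in both groups and a difference of 0.59 ± 0.30 (SE). Its difference lay between 0.48 and 0.69 whichever array was left out. Zbp1, a sensor of left-handed nucleic acid that can start necroptosis, had 7.0, 7.02, 6.90 and 5.34. Only control replicate 2 was low, so the difference of 0.89 ± 0.55 shrank to 0.11 without that array. A dimmer Zbp1 probe set differed by -0.27.

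Of the 4 signal transducers and transcription factors, the DNA-binding factor Irf7, an amplifier of interferon production, was the member whose groups did not overlap. It had 6.54, 6.20, 6.03 and 5.41, a difference of 0.65 ± 0.36 (SE), and 0.34 without control replicate 2. Irf1, an early factor downstream of both interferon types, had 8.75, 8.55, 8.58 and 7.73, with control replicate 2 alone below the rest. Stat2 had 6.91, 7.32, 7.22 and 6.15, and its partner Irf9 had 7.38, 8.44, 8.29 and 7.20.

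For Irf9 the BC alone arrays lay 1.06 apart and the control arrays 1.09 apart, so both groups held a high and a low array. All 4 had a higher mean in BC alone, by 0.17 to 0.65, but the sign of Irf1 and Irf9 turned after quantile normalization and after cyclic loess, to -0.43 for Irf9 at the lowest. Without control replicate 2 Irf9 was at -0.38 and Stat2 at -0.11.

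The enzymes that answer to double-stranded RNA went different ways. OAS enzymes make oligoadenylates that activate RNase L, and PKR, encoded by Eif2ak2, halts translation. Oasl2, an OAS-like protein, had 6.94, 6.73, 6.60 and 4.70, and its difference of 1.19 ± 0.65 (SE), 2.27-fold, was 0.24 without control replicate 2. Oas3 ran the other way, with 4.05, 4.79, 4.57 and 5.98, where control replicate 2 was the highest array and the groups overlapped. Its difference of -0.86 ± 0.56 was -0.15 without that array and kept its sign under the 3 other scalings.

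Oas2 had 5.15, 5.60, 5.42 and 5.65, and Oasl1, which lacks the enzyme activity and restrains Irf7 translation, had 5.21, 4.82, 5.49 and 5.03. Both had a lower mean in BC alone with overlapping groups. Eif2ak2 had 4.68, 5.64, 4.36 and 5.29, with the replicates of each group 0.96 and 0.93 apart. Its mean difference of 0.34 ± 0.50 was smaller than either gap.

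The IFIT proteins bind viral RNA and keep it from being translated. All 3 IFIT genes had their highest value on BC alone replicate 2 and their lowest on BC alone replicate 1. Ifit1 had 4.89, 6.23, 5.10 and 5.09, so the control arrays lay 0.01 apart and between the BC alone arrays, which lay 1.34 apart. Ifit3 had 5.71, 6.96, 6.14 and 6.72, and Ifit2 had 3.18, 3.89, 3.39 and 3.45. The group differences of 0.47 ± 0.50, -0.10 ± 0.51 and 0.12 ± 0.36 (SE) for Ifit1, Ifit3 and Ifit2 were each smaller than the gap between the BC alone replicates. Without BC alone replicate 2 all 3 were below zero, and without BC alone replicate 1 all 3 were above it.

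Among the dynamin-like GTPases, Gbp2, a guanylate-binding protein that coats pathogen vacuoles, had 6.72, 7.16, 6.84 and 5.50. Its difference of 0.77 ± 0.52 (SE) was 0.10 without control replicate 2, and a dimmer Gbp2 probe set differed by 0.92. The brighter set is of a class that can also bind related transcripts. Gbp3 had 2.99, 3.64, 3.85 and 2.78, with equal group means. The MX proteins trap viral nucleocapsids. Mx1 had 3.87, 3.99, 3.85 and 4.34, and Mx2 had 3.39, 3.78, 3.97 and 3.49. Their group means differed by -0.17 and -0.15 (log2), and the sign of Mx2 turned after quantile normalization and that of both after cyclic loess.

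Rsad2, the antiviral enzyme viperin, had 7.47, 7.91, 7.42 and 7.83, and the nucleotide kinase gene Cmpk2, which lies next to it in the genome, had 4.70, 5.19, 4.68 and 5.26. For both genes replicate 2 was the high array in each group, and the group means differed by 0.07 ± 0.34 and -0.03 ± 0.37 (SE). A dimmer Rsad2 probe set, at 5.69, 5.87, 5.25 and 5.26, did not overlap between groups and differed by 0.53. The dimmest one differed by -0.005. After quantile normalization the Rsad2 difference was -0.61 and after cyclic loess -0.51.

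In the ISG15 cycle, Usp18 removes ISG15 from proteins and blocks the type I receptor, and Trim25 is a ubiquitin ligase that activates RIG-I. Trim25 had 6.83, 6.83, 6.18 and 6.09, the smallest gaps between replicates among the members whose groups did not overlap. Its difference of 0.70 ± 0.29 (SE) stayed between 0.65 and 0.74 without any 1 array and between 0.38 and 0.82 under the 3 other scalings. Usp18 had 3.24, 4.70, 3.97 and 3.50, with the BC alone arrays 1.46 apart on either side of the control arrays.

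The ADP-ribosyltransferase family members Parp9, Parp12 and Parp14 had a higher mean in BC alone by 0.55, 0.12 and 0.20, and the sign of Parp14 turned after quantile normalization and cyclic loess. Without control replicate 2 Parp12 was at -0.33 and Parp14 at -0.39. Parp9 had 5.35, 6.17, 5.43 and 4.99. Parp14 had 7.41, 7.13, 7.66 and 6.48, and Parp12 had 4.59, 4.75, 5.0 and 4.11, so that control replicate 1 was the highest and control replicate 2 the lowest array for both. Of the remaining members, the chaperone-like Rtp4 had 7.24, 8.11, 7.33 and 6.22. Xaf1, a partner of the caspase inhibitor XIAP, had 6.23, 7.07, 6.48 and 5.16, and Ifi35, a partner of the interferon-induced protein NMI, had 5.72, 6.58, 5.95 and 5.97.

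Rtp4 and Xaf1 differed by 0.90 ± 0.52 and 0.83 ± 0.55 (SE) over all arrays and by 0.35 and 0.17 without control replicate 2. Dimmer probe sets of these genes differed by -0.52 and -0.21. Of the 29 members 9 had a dimmer probe set, 11 in all, and 7 of the 11 had the opposite sign. The sign of 19 members, 16 higher and 3 lower, was the same under the 3 other scalings, and that of 12, 10 higher and 2 lower, was also the same without each array. These 12 were Irf7, Ifih1, Dhx58, Zbp1, Oasl2, Gbp2, Trim25, Parp9, Rtp4 and Xaf1, higher, and Oas3 and Oasl1, lower. Among them, Irf7, Ifih1, Dhx58, Zbp1, Oasl2 and Trim25 are the 6 members whose groups did not overlap. For these 6, leaving out 1 array could not turn the sign. The share of all genes that kept their sign is not given here, so the 12 are a description.

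Described array by array, BC alone replicate 2 held the highest value of 14 of the 29 members, against 19.2% of all genes. BC alone replicate 1 held the highest of 5, control replicate 1 of 5 and control replicate 2 of 4, against 20.1%, 19.2% and 40.4%. The lowest value lay on control replicate 2 for 16 members, against 34.1% of all genes, and on BC alone replicate 1 for 8, against 21.8%. Relative to each gene's mean over the arrays, the member median was -0.14, 0.35, -0.02 and -0.40. The same medians over all genes were -0.03, -0.04, -0.03 and 0.04. Over all genes whose mean lies above the median of all probe sets they were 0.12, 0.13, 0.09 and -0.34. For the 24 members of that class they were 0.0025, 0.38, -0.025 and -0.50.

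Brightness moves with the position of control replicate 2. Of the 10454 genes whose mean lies above the median of all probe sets, 52.6% had their lowest value there and 65.6% had a higher mean in BC alone. Among the 24 members of this brighter class these counts were 15 and 19. The 5 dimmer members were Ifit2, Mx1, Mx2, Gbp3 and Usp18. The median difference was 0.45 for the 24 brighter members and 0.27 for all brighter genes. Without control replicate 2, when 19 of 29 members were higher, 50.3% of all genes were, at a median of 0.005. The part of brightness in the member differences was not tested.

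**Figure D3:**
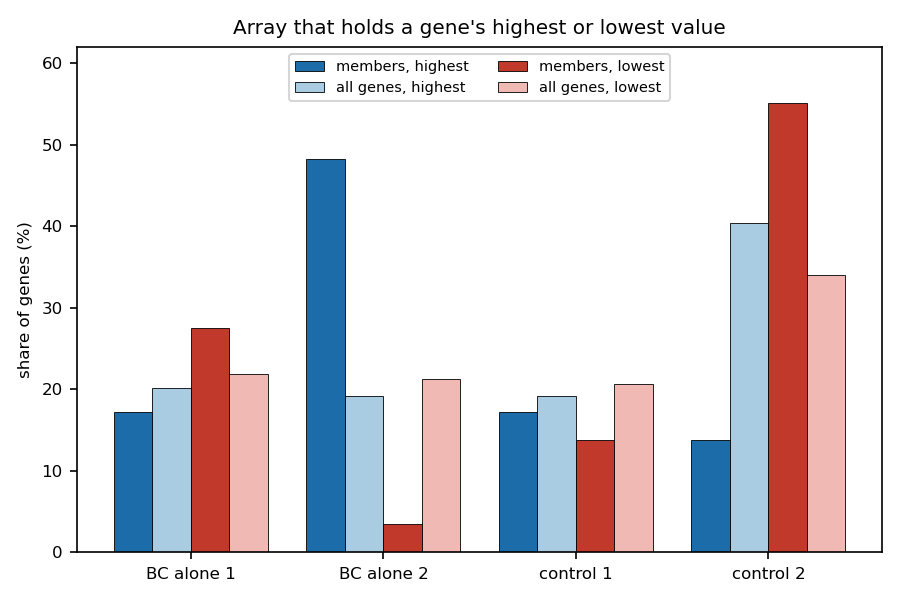
Share of genes in percent (y axis) whose highest value (blue) or lowest value (red) lies on each of the 4 arrays (x axis), for the 29 members (dark) and for all 17097 genes (light). BC alone replicate 2 holds the highest value of 14 members, and control replicate 2 the lowest of 16. Ties for the extreme are counted on no array.

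The gap between BC alone replicates went one way for most members. BC alone replicate 2 lay above replicate 1 for 21 of the 29, by a median of 0.44, against 48.9% of all genes and a median of 0. The widest gaps were those of Usp18, Ifit1 and Ifit3, at 1.46, 1.34 and 1.25, and Dhx58 had the widest in the other direction, at -1.05. In the control, replicate 1 lay above replicate 2 for 20 members, against 46.5% of all genes. In the brighter class it did so for 17 of 24 members and 65.7% of genes. The median gaps there were 0.45 and 0.42, so the members were near their class. Oasl2 and Zbp1 had the widest control gaps, at 1.90 and 1.56, and Oas3 and Eif2ak2 ran the other way, at -1.41 and -0.93.

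Among the members with the response element shown above, BC alone replicate 2 was above replicate 1 for 8 of 9, at a median gap of 0.65, and their median control gap was 0.01. Of the 11 measured members whose window lacks the motif it was 6, at 0.16, and the median control gap was 0.62. The median group difference was 0.34 for the 9, of which 6 were higher in BC alone, and 0.19 for the 11, of which 9 were. Over all measured genes it was -0.06 with the motif and -0.03 without it. Over all 488 measured genes with the motif, 52.5% were higher on BC alone replicate 2 than on replicate 1, at a median gap of 0.02, against 49.0% of the 13117 without it.

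Most macrophage markers and some markers of other cells moved with the gap between BC alone replicates. Of 18 macrophage markers 16 were higher on replicate 2, by a median of 0.61, while Csf1r and Itgam had gaps of -0.26 and -0.34. The complement genes C1qa, C1qb and C1qc had 4.57, 4.63 and 4.66 on replicate 1 and 7.07, 7.26 and 7.05 on replicate 2. Other leukocyte lists were mixed. Higher on replicate 2 were 3 of 6 pan-leukocyte, 5 of 10 T and NK cell and 1 of 4 B and plasma cell markers. So were 1 of 6 neutrophil and all 5 plasmacytoid dendritic cell markers, the latter by 0.03 to 0.73 at a median gap of 0.22. Of 10 luminal markers 6 were higher on replicate 2, at a median gap of 0.345. Elf5 and Kit had gaps of 2.71 and 2.23, while Foxa1 and Pgr had -1.21 and -0.98. The haemoglobin gene Hba-a1 had a gap of -2.78, and Alas2, the other measured erythroid marker, had -0.08. Summed on the linear scale, the 18 macrophage markers gave 596 and 1240 on the BC alone arrays and 1636 and 907 on the control arrays. Between groups these macrophage markers ran against the interferon-stimulated genes, with 14 of 18 lower in BC alone at a median of -0.45. The brightest of them, Lyz2 and Cd14, had 6.12, 6.93, 7.46 and 7.70, and 6.35, 6.66, 8.56 and 6.40, and the resident macrophage gene Adgre1 had 3.10, 4.61, 4.03 and 4.83. All 6 pan-leukocyte markers and all 6 neutrophil markers also had a lower mean in BC alone, at medians of -0.56 and -0.37. Of the 5 plasmacytoid dendritic cell markers 4 had a lower and 1 a higher mean, at a median of -0.645. Of the macrophage, pan-leukocyte, neutrophil and plasmacytoid dendritic cell markers 6, 3, 4 and 1 were in the dimmer class. In that class 5469 of all 6643 genes had a lower mean in BC alone. The part of leukocyte or luminal RNA in the member values was not tested.

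Fibroblast markers moved with the group difference of the members. Of 9 markers 8 had a higher mean in BC alone, at a median difference of 2.04. Groups did not overlap for 7 of these, against 16.8% of all genes and 2613 of the 10454 brighter genes. The array medians of the list were 6.97, 7.28, 5.93 and 4.42, and its linear sum ran from 5770 and 6510 in BC alone to 3727 and 1316 in the control. The collagen gene Col1a1 had 10.84, 10.91, 10.30 and 8.62, while the fibroblast receptor gene Pdgfra had 4.06, 3.57, 3.58 and 3.68. Of 7 endothelial markers 6 had a higher mean in BC alone, at a median of 0.22. Tek, Cdh5 and Emcn were higher without overlap, by 1.82, 1.35 and 1.32, while Pecam1 had 7.63, 6.82, 7.17 and 7.14. Most basal and luminal markers also had a higher mean in BC alone, 8 of 9 and 7 of 10, at medians of 1.405 and 0.67. Against control replicate 1 alone these medians were -0.14 and -0.07, and that of the fibroblast markers was 1.09. The part of stromal or epithelial RNA in the member differences was not tested.

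**Figure D4:**
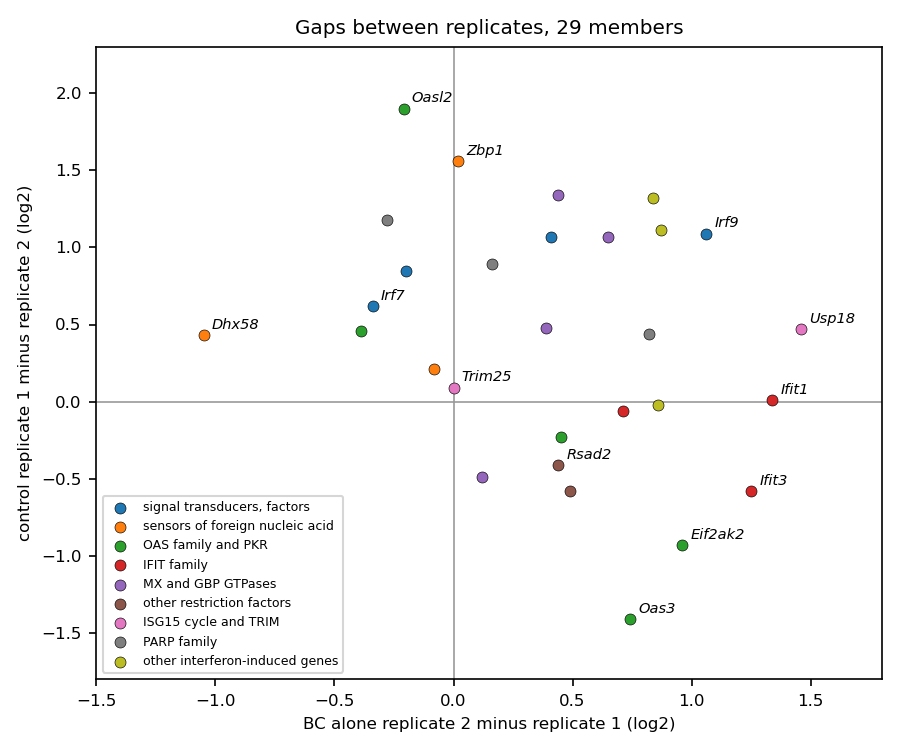
Gap between replicates on the log2 scale for each of the 29 members, as BC alone replicate 2 minus replicate 1 (x axis) and control replicate 1 minus replicate 2 (y axis), coloured by role. Usp18, Ifit1 and Ifit3 lie farthest to the right, at 1.46, 1.34 and 1.25, and Oasl2 and Zbp1 at the top, at 1.90 and 1.56.

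Other genes of the interferon pathway came from 6 lists with 175 symbols, of which 142 were measured. No gene of these lists passed an adjusted p of 0.05 in limma over all genes. In all, 86 of the 142 had a higher and 55 a lower mean in BC alone, at a median of 0.27, against 46.7% of all genes higher. Groups did not overlap for 49 higher and 21 lower genes, against 16.8% and 19.6% of all genes. Of the 142, 103 were in the brighter class, of which 65.6% over all genes had a higher mean in BC alone. Among all 10454 brighter genes 2613 were higher and 1164 lower without overlap.

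All 10 measured interferon genes had a lower mean in BC alone, by 0.10 to 0.37, and all 10 had their highest value on control replicate 2. Of these, 8 were dim, and of all 6643 dimmer genes 71.5% had their highest value on that array. Ifnb1, the interferon beta gene, had 3.69, 3.69, 3.87 and 4.25, and Ifng, the type II interferon gene, had 3.40, 3.31, 3.44 and 3.66. In both, the control arrays lay above the BC alone arrays, as in Ifna2 with 2.99, 2.94, 3.02 and 3.48. Without control replicate 2, 4 of the 10 were higher, and under the 3 other scalings 1 to 3 were.

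Of 10 receptor, kinase and STAT genes 9 had a higher mean in BC alone, at a median of 0.51, and 5 did without control replicate 2. Ifngr2, a chain of the type II interferon receptor, had 8.01, 7.53, 6.77 and 6.19, a difference of 1.29 ± 0.37 (SE) with no overlap. Jak2, the kinase tied to it, had 7.10, 6.74, 6.29 and 5.88, a difference of 0.84 ± 0.33. Ifnar2, of the type I receptor, had 8.69, 8.97, 8.65 and 6.93, so that only control replicate 2 was low. After quantile normalization and after cyclic loess 7 of the 10 were higher.

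Sensors, adaptors and interferon regulatory factors upstream of interferon were split, with 8 of 16 higher and 7 lower at a median of 0.05, and 12 higher after median centring. Myd88, the adaptor of most Toll-like receptors, had 6.25, 6.26, 5.90 and 5.17, and Ikbke and Tlr3 were also higher without overlap, by 0.52 and 0.48. The nucleic acid receptor genes Tlr7 and Tlr9 and the myeloid factor Irf8 were lower without overlap, by -0.68, -0.58 and -0.62, with 4.56, 4.91, 5.48 and 5.22 for Irf8. Among 13 negative regulators 10 had a higher mean in BC alone, and 7 and 8 did after quantile normalization and cyclic loess. Socs3, a feedback inhibitor of cytokine receptors, had 8.24, 7.69, 6.92 and 5.19, a difference of 1.91 ± 0.62 (SE), and Adar and Ptpn1 differed by 0.86 and 0.70 without overlap.

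In the longest list, 49 of 78 further interferon-stimulated genes had a higher and 29 a lower mean in BC alone, at a median of 0.32. Slfn5, of the Schlafen family, had 5.83, 6.70, 4.43 and 4.77, a difference of 1.67 ± 0.41 (SE). Lgals3bp and the chemokine gene Cxcl10 differed by 1.46 and 1.23 without overlap, with 7.02, 7.44, 6.88 and 5.12 for Cxcl10. Ifitm1, whose protein blocks viral entry at membranes, ran the other way with 5.30, 5.63, 7.05 and 6.72, a difference of -1.42 ± 0.32. Ms4a6d and Ms4a4c, which are expressed in myeloid cells, were lower by -1.31 and -1.14, and without overlap.

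In a list of 15 genes of MHC class I presentation, which interferon also induces, 10 had a higher mean in BC alone. Of the 15, 14 were in the brighter class, where 65.6% of all genes had a higher mean. After quantile normalization and cyclic loess 8 and 7 were higher, when the list median of 0.48 was 0.015 and -0.03. The immunoproteasome gene Psmb8 had 8.58, 8.95, 8.02 and 6.91, a difference of 1.30 ± 0.46 (SE), and H2-T23 had 9.29, 9.30, 8.74 and 7.44. Control replicate 2 held the lowest value of 10 of the 15, against 52.6% of all brighter genes. H2-Q4 was also higher without overlap, by 1.04, while Ciita, H2-M3 and Tapbpl were lower by -0.56, -0.53 and -0.31. Ciita encodes the transactivator of MHC class II genes but was counted in this list.

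**Figure D5:**
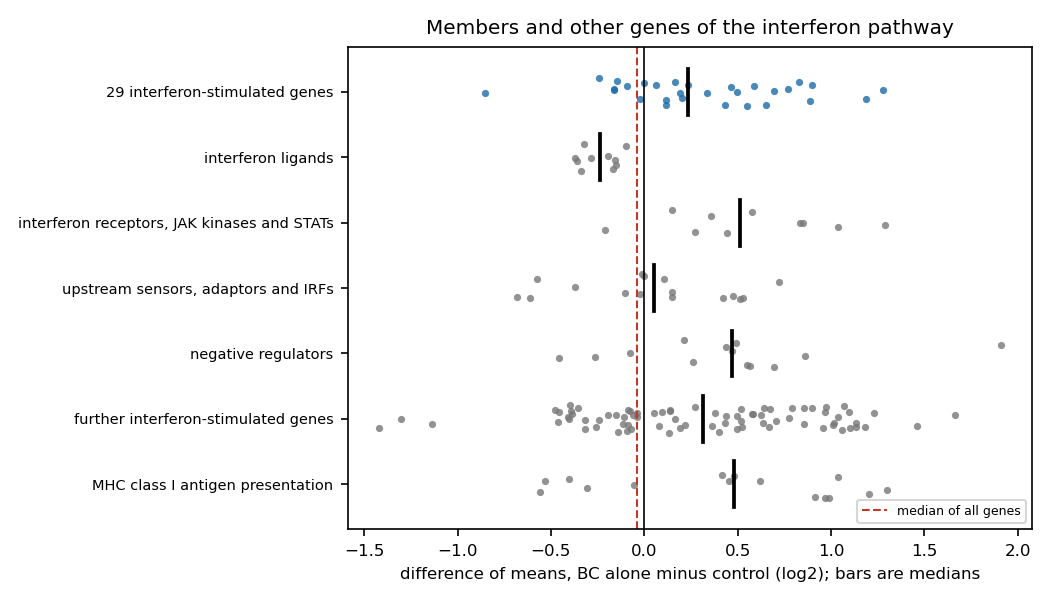
Difference of group means, BC alone minus control, on the log2 scale (x axis) for each gene of the member list (blue) and of 6 pathway lists (grey, rows), with bars at the list medians and a dashed line at the median of all genes, -0.04. The 10 interferon genes lie between -0.37 and -0.10, and the 29 members between -0.86 and 1.28.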

How the data were processed

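The authors made the deposited log2 values, 1 per probe set of an Affymetrix mouse array, with RMA (affy), as the submitters' processing notes say without versions. RMA subtracts background, equalises distributions and summarises probes. The distribution of control replicate 2 nevertheless differed, and whether the 4 arrays were normalised together is not given in the sources used here, so each difference against that array may hold a difference in scale. Of 45141 probe sets 28898 had a single symbol in the platform annotation, 551 had several and 15692 were not named. All 29 measured members matched the reference through Entrez identifiers.

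BC alone was compared with the control in limma 3.58.1 under R 4.3.3 (lmFit and eBayes, no block, two-sided, Benjamini-Hochberg over 17097 genes, threshold 0.05), with 2 residual degrees of freedom. The fit was tested on simulated data. Members and lists were chosen with earlier results of these data known, so counts over them are descriptions. All measured members are named, and of each pathway list up to 3 higher and 3 lower genes with the largest difference without overlap. Of the marker lists shown, preset defining genes and some of the brightest are named. The C1q genes, Itgam, Elf5, Kit, Foxa1, Esr1, Pgr, Hba-a1, Alas2, Tek, Cdh5 and Emcn were chosen after their values were seen. Alternatives left out each array, changed the scaling, the variance model or the probe set rule, dropped dim probe sets, or added a replicate block.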

Additional observations from a re-analysis of the deposited data

How the results depend on the processing

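No member passed an adjusted p of 0.05 under the 12 alternatives, with a smallest adjusted p of 0.0842, without control replicate 1. Over all genes 97 passed with an intensity trend and 108 with the replicate block, against 0 otherwise, and no member was among them. Same-numbered arrays did not deviate together (r = -0.02 over genes). With 2 arrays a group this cannot settle whether the numbers pair the arrays, which the labels do not say. Without 1 array, 14 to 26 members had a higher mean in BC alone, the member median ran from -0.05 to 0.56, and 1 to 7 members differed at least 2-fold without overlap. The median was below zero, at -0.05, without BC alone replicate 2, where 14 of 29 were higher, and 0.55 without BC alone replicate 1. After cyclic loess and with the mean of probe sets 1 member differed at least 2-fold without overlap, against 2. The 7, without control replicate 1, were 6 higher and 1 lower, against 18.1% and 4.23% of all genes. The 1, without control replicate 2, was higher, against 2.19%. The causes of these shifts were not tested. Leaving out dim probe sets kept 24 members, 19 of them higher. The sign changed for 6 members after quantile normalization, 2 after median centring and 7 after cyclic loess. No group has enough arrays for a test of outlying values.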
